A study of Mus musculus with 2 samples.

Results

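The 10 genes described here encode proteins that belong to the cytotoxic granules of killer lymphocytes or act beside them: the granzymes Gzma, Gzmk and Gzmm, the pore former Prf1, the granule proteoglycan Srgn, the granule membrane protein Nkg7, the protease Ctsw, the protease inhibitor Cst7 and the serpins (serine protease inhibitors) Serpinb9 and Serpinb9b. They were chosen by symbol, and all 10 were found among the 32285 genes of both count matrices. They were followed across T and NK cell classes defined by marker genes, none of which is among the 10. The data are droplet single-cell transcriptomes of CD45-positive cells, isolated with magnetic beads from subcutaneous tumours of BALB/c mice. The tumours grew from CT26, a mouse colorectal carcinoma line. Mice aged 5 weeks at the start were fed normally (the Control library) or were given isocaloric food deficient in arginine for 1 week before the CT26 cells were injected, and tumours were collected on day 20. The label of the Arg library names no diet, so its arm was taken from the series' design text, and the sources used here do not give the number of mice per library. With 1 library in each group there is no replicate and no test, and a difference below is one between these libraries. Intervals are 95% and cover counting error alone. For summed counts they take every UMI (unique molecular identifier, 1 captured RNA molecule) as independent, which makes them too narrow for a gene whose UMIs sit in few cells.

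Cytotoxic lymphocytes kill by releasing granules into the contact zone with a target cell. Perforin inserts into membranes and lets granzymes, a family of serine proteases, enter the target. Granzyme A cleaves after basic residues and is abundant in resting NK cells, granzyme K is known from memory-like CD8 T cells, and granzyme M is an NK and innate-like T cell enzyme that prefers other residues. Serglycin (Srgn) holds granule proteases on its sulfated sugar chains. Cystatin F (Cst7) restrains the cathepsins that activate granule proteases, and cathepsin W (Ctsw) is a cysteine protease of NK and CD8 T cells. Serpinb9, and the mouse paralogue Serpinb9b, belong to the clade B serpins, of which Serpinb9 blocks granzyme B that leaks into the killer cell or reaches bystanders.

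The genes include 2 pairs that lie near each other on chromosome 13 of GRCm38 (GENCODE M21 annotation). Gzma (chr13:113093825-113100981, minus strand) and Gzmk (chr13:113171608-113225908, minus strand) are separated by 70626 bases, and Serpinb9 (chr13:33003250-33017957, plus strand) and Serpinb9b (chr13:33027416-33041884, plus strand) by 9458 bases. Prf1 (chr10:61297833-61304680), Srgn (chr10:62493833-62527451) and Gzmm (chr10:79689020-79695261) are on chromosome 10, Nkg7 (chr7:43437073-43438249) on chromosome 7, Ctsw (chr19:5465043-5468507) on chromosome 19 and Cst7 (chr2:150570415-150578944) on chromosome 2. RefSeq promoter windows (GRCm38.p6) were matched for 9 of the 10 genes. The RefSeq starts differ from the GENCODE gene ends for some genes. The windows of Gzmk and Serpinb9 lie inside the gene spans given above, and that of Nkg7 (chr7:43436888-43437137) runs into its span. The 150 bases before the RefSeq start are printed for both pairs, so that near genes with unlike levels can be set side by side, and for Prf1, the pore former, written 5′ to 3′ on the gene's strand. Capitals mark a Runx motif (TGTGGT, or ACCACA on the other strand) or an Ets core (CCGGAA).
Gzma (chr13:113100982-113101131, minus strand): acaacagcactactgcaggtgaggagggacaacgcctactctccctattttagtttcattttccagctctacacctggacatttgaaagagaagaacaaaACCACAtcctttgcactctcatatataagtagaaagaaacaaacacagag
Gzmk (chr13:113180966-113181115, minus strand): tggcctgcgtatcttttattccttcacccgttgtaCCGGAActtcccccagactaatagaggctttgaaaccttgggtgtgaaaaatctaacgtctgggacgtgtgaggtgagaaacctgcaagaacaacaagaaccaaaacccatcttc
Serpinb9 (chr13:33004391-33004540, plus strand): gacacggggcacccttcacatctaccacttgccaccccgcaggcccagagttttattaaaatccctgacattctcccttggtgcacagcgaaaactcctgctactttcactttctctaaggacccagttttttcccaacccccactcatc
Serpinb9b (chr13:33027264-33027413, plus strand): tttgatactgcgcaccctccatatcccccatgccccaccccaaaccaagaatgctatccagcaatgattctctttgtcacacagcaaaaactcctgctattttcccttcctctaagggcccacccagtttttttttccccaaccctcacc
Prf1 (chr10:61297686-61297835, plus strand): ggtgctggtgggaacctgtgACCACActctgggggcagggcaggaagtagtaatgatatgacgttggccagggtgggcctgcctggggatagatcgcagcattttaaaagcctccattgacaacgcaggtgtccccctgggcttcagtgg
Over the 250 bases before the start, searched on both strands, a Runx motif was found for Gzma (45 to 50 bases before the start), Prf1 (125 to 130), Nkg7 (78 to 83), Cst7 (183 to 188), 1 of 2 Gzmm starts and 1 of 2 Srgn starts, against 14.05% of 32851 RefSeq promoters. An Ets core lay before Gzmk (110 to 115) and 1 Srgn start (47 to 52), against 12.03% of promoters. The T-box motif AGGTGTGA was found for Nkg7 alone of the 9 (7 to 14 bases before the RefSeq start, inside the GENCODE span), against 1.12% of promoters. No window held the AP-1 motif TGANTCA, against 6.75%. The Serpinb9 and Serpinb9b windows aligned with 55.8% identical columns, the Gzma and Gzmk windows with 46.99% and the unrelated pair Gzma and Prf1 with 46.6%. A match describes letters and not a bound site.

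The Arg and Control libraries gave 155927693 and 191505551 UMIs, over 14540 and 14343 barcodes, of which 12991 and 12800 were kept as cells. Of all barcode sequences, 44 occur in both libraries. Names such as CD8 T mean CD8 T-like and were given to clusters from marker genes. The CD8 T class held 1140 Arg and 1690 Control cells, the NK class 1427 and 758, the CD4 T class 227 and 103, and the regulatory T (Treg) class 283 and 165, while the gamma-delta T class (22 and 9 cells) was too small to compare. Cd8a was at 499 and 453 CPM (UMIs of the gene in 1000000 UMIs of the class) in CD8 T cells and Ncr1 at 959 and 867 CPM in NK cells, against at most 7.29 CPM of Cd8a in NK cells. Different clusters filled the CD8 T class in each library. Cluster L1 (leading genes Pdcd1 and Tox, which mark chronically stimulated cells) was 5.26% of the Arg and 49.9% of the Control class, cluster L4 (Serpine2, Gzme, Gzmd) 34.4% and 4.85%, and cluster L2 (Gzmk among its leading genes, with Lef1 and Bcl11b) 31.8% and 10.7%. The 10 genes were left out of the genes used for clustering, so they did not define any cluster.

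Gzma was highest in NK cells, where it was at 6632 CPM in the Arg and 5284 CPM in the Control library, and stood at 301 CPM in the Arg and 169 CPM in the Control library in CD8 T cells. In Treg cells it was at 181 (Arg) and 173 CPM (Control), and in CD4 T cells at 46.4 (Arg) and 89.7 CPM (Control). The 2 libraries of the NK class lay far above those of every other class, whereas the Treg values lay between the 2 CD8 T values. Gzmk was instead highest in CD8 T cells, with 69.5 CPM in the Arg and 64.9 CPM in the Control library in CD8 T cells, 23.6 and 33.9 CPM in CD4 T cells, 14.8 and 15.8 CPM in NK cells and 8.95 and 8.09 CPM in Treg cells. Its order of classes was thus CD8 T, CD4 T, NK and Treg cells in both libraries. Gzmm was scarce everywhere, from 0 CPM in Control Treg cells (0 UMIs, which allows up to 2.21 CPM) to 7.61 CPM in Arg CD8 T cells, and stayed under the level floor of 10 CPM (mean of the 2 libraries) in all 4 classes. The 2 granzyme genes that are neighbours on chromosome 13 were high in different lymphocytes.

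Prf1 followed NK and CD8 T cells together, at 1009 CPM in the Arg and 1187 CPM in the Control library in NK cells and 899.7 CPM in the Arg and 646 CPM in the Control library in CD8 T cells. In Treg cells it was at 119 (Arg) and 176 CPM (Control), in CD4 T cells at 12.5 (Arg) and 21.9 CPM (Control). Both libraries thus had the order NK, CD8 T, Treg and CD4 T cells. Nkg7 was highest in CD8 T cells (1531 and 1347 CPM) and next in NK cells (1042 and 1057 CPM), with 385 and 489.8 CPM in Treg and 148.9 and 225 CPM in CD4 T cells. Ctsw was highest in NK cells (288 and 246 CPM), then in CD8 T cells (158 and 157 CPM). Cst7 was highest in CD8 T cells (171 and 183 CPM), followed by NK (119 and 129 CPM) and Treg cells (94.2 and 91.2 CPM).

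Srgn did not separate killer lymphocytes from others. It was at 2471 and 2039 CPM in Treg cells and 2027 and 1554 CPM in CD4 T cells, above CD8 T cells (1292 and 935 CPM) and NK cells (1302 and 1266 CPM) in the same library. With both libraries summed, neutrophils had 12428 CPM and mast cells 5845 CPM, both cell types that store proteases in granules. The serpins differed from each other. Serpinb9 was at 771 and 733 CPM in NK cells, 369 and 330.2 CPM in CD8 T cells, 132 and 135 CPM in CD4 T cells and 82.5 and 114 CPM in Treg cells, and mature dendritic cells, which present antigen to T cells, held 1192 CPM. Serpinb9b was at 249.5 and 239.6 CPM in NK cells and 247 and 72.4 CPM in CD8 T cells, and at no more than 22.6 CPM in CD4 T and Treg cells. Of the 31-base stretches in the last 600 bases of Serpinb9b transcripts, 9.04% also occur in Serpinb9 transcripts, so part of its reads could be uncertain. Serpinb9b also overlaps an antisense gene (Gm36099), and Gzmk and Ctsw overlap genes on the opposite strand (Esm1 and Fibp). The sources used here do not give the strand setting of the counting, so whether reads of such pairs were told apart is not known here.

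**Figure D1:**
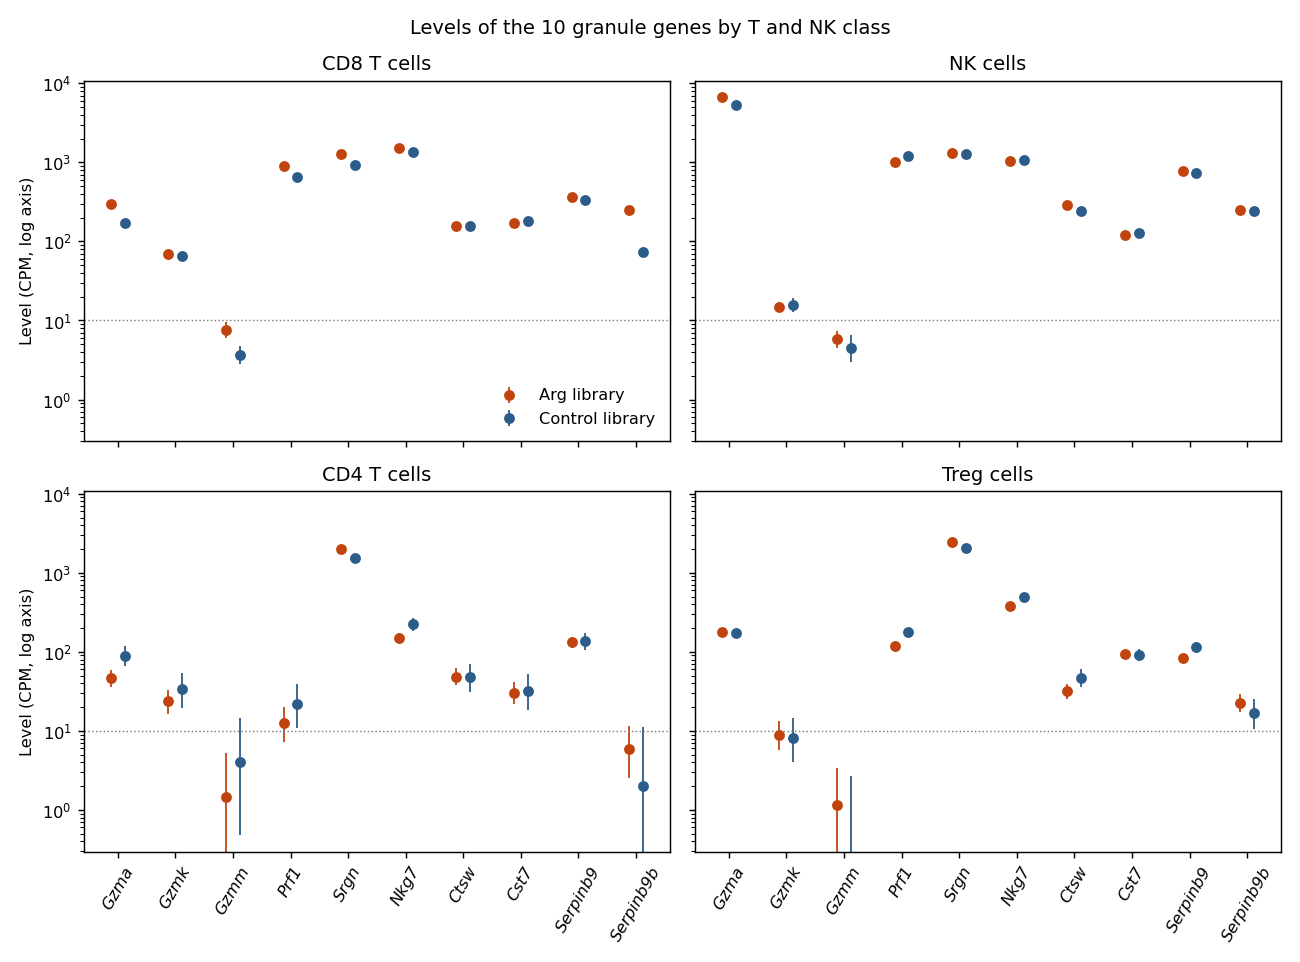
Levels of the 10 genes in each T and NK class, in CPM on a log axis, for the Arg library (red-brown) and the Control library (blue). Bars are 95% counting intervals (many are smaller than the points) and the dotted line is the 10 CPM floor. Gzma stands highest in NK cells, Serpinb9b differs most between libraries in CD8 T cells, and Srgn is high in all 4 classes.

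Free RNA in droplets also gives UMIs, so levels of 4 of the genes were read in macrophages and neutrophils, myeloid cells that are not cytotoxic lymphocytes. Macrophages held 36.2 CPM of Gzma in the Arg and 10.02 CPM in the Control library, and neutrophils 27.8 and 10.4 CPM. Macrophage levels were 9.62 and 3.29 CPM for Prf1, 0.499 and 0.352 CPM for Gzmk and 5.40 and 1.195 CPM for Serpinb9b. Of these 4 genes Gzma had the highest macrophage level in each library. Serpinb9 (45.3 and 20.2 CPM) and Srgn (977 and 1040.0 CPM) were higher still in macrophages, so these cells give no background for them. Single cells held part of the macrophage UMIs. The top Arg macrophage for each gene had 76 of 119 Serpinb9b, 64 of 212 Prf1 and 147 of 799 Gzma UMIs. In Control the top cell had 16 of 68, 9 of 187 and 76 of 570. No neutrophil had more than 2 Gzma UMIs. The part of free RNA in the macrophage levels was not tested. The interval of the Arg CD4 T level (35.7 to 59.4 CPM) overlaps that of Arg macrophages (33.8 to 38.8 CPM), while the Control CD4 T level was above that of Control macrophages. To compare shares of cells, each cell was thinned to 2000 UMIs. A Gzma UMI was then found in 79.5% (77.3 to 81.6) of Arg and 76.95% (73.8 to 79.9) of Control NK cells, in 11.2% (9.35 to 13.2) and 7.98% (6.72 to 9.39) of CD8 T cells, in 5.02% (2.77 to 8.28) and 3.82% (1.42 to 8.13) of Treg cells and in 2.25% (0.735 to 5.18) and 4% (1.10 to 9.93) of CD4 T cells. Macrophages gave 2.85% (2.10 to 3.77) and 1.56% (1.19 to 2.0), with median depths of 11196 and 13321 UMIs before thinning against 7594 and 8216 in CD8 T cells. Without thinning the CD8 T shares were 20.2% and 12.7% and the macrophage shares 12.2% and 6.93%. The share intervals of CD4 T and of Treg cells overlap those of macrophages in both libraries, so these shares do not set the 2 classes apart from macrophages. By level, Treg cells were above macrophages in both libraries, at 181 CPM (165 to 198) in Arg and 173 CPM (151 to 196) in Control. Of the Treg UMIs of Gzma, 1 Arg cell held 165 of 464 and 1 Control cell 94 of 235. Gzmk was found in 13.8% (11.8 to 15.99) and 12.1% (10.6 to 13.8) of thinned CD8 T cells against 0.182% and 0.0779% of macrophages. Thinning left out 46 and 36 (Arg and Control) CD8 T cells, 41 and 16 NK cells, 4 and 8 Treg cells, 5 and 3 CD4 T cells and 112 and 160 macrophages that were shallower.

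**Figure D2:**
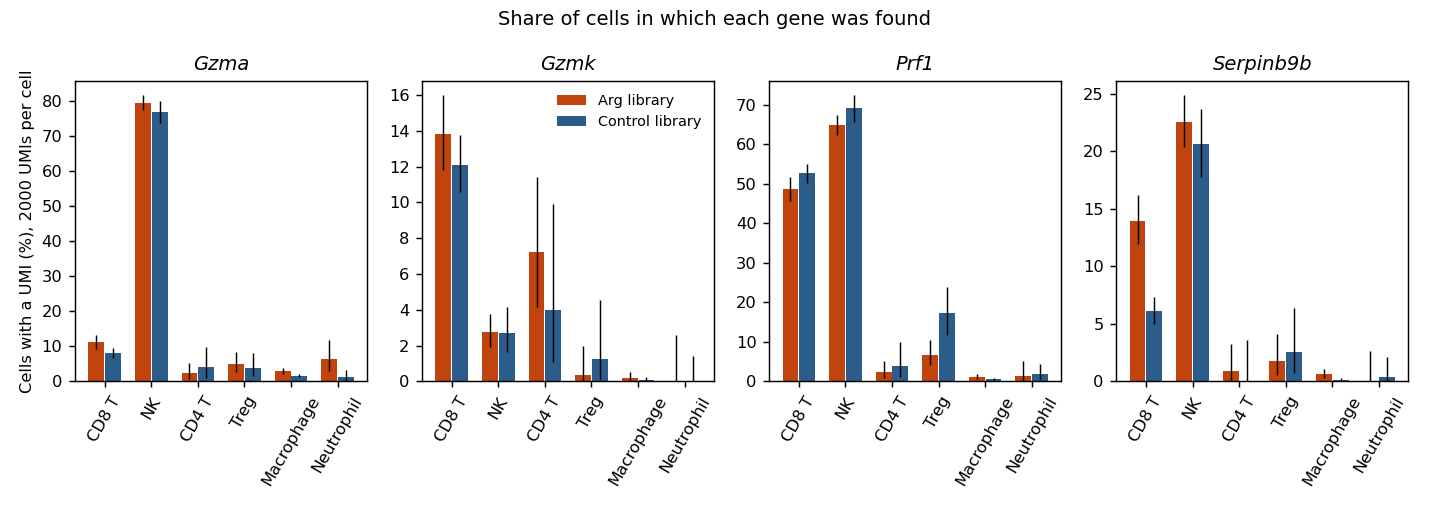
Percent of cells with at least 1 UMI of Gzma, Gzmk, Prf1 and Serpinb9b after thinning to 2000 UMIs per cell, by class and library, with macrophages and neutrophils as the background. Bars show 95% Clopper-Pearson intervals. Gzma is found in most NK cells and few others, and Gzmk mainly in CD8 T cells.

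The CD8 T classes were compared next, to ask how the genes differed between the library of mice on the arginine-deficient diet and the Control library. Of the 9 genes above the floor, 8 were higher in the Arg library and 1 (Cst7) was lower, while 47.4% of all genes above the floor were higher. Gzma and Serpinb9b passed 1.5-fold, a threshold applied throughout to the ratio after adding 5 CPM to each level, both higher, in a comparison where 2.39% of 8008 genes passed higher, 2.57% lower and 4.96% in either direction. The median log2 ratio of the 9 was 0.18, against −0.012 for all genes above the floor. Serpinb9b was 3.41 times as high in Arg as in Control cells (247 and 72.4 CPM; interval 3.18 to 3.66), and Gzma 1.78 times (301 and 169 CPM; interval 1.69 to 1.87). Prf1 followed at 1.39-fold (1.35 to 1.43), Srgn at 1.38-fold (1.35 to 1.41), Nkg7 at 1.14-fold (1.11 to 1.16) and Serpinb9 at 1.12-fold (1.07 to 1.17). Gzmk (1.07-fold, 0.972 to 1.18) and Ctsw (1.01-fold, 0.950 to 1.08) had intervals that include no difference, and Cst7 was at 0.934-fold (0.880 to 0.991). Gzmm, under the floor, had 79 UMIs in the Arg and 60 in the Control cells. The higher Prf1 level was not matched by the share of thinned cells with a Prf1 UMI, 48.7% (45.7 to 51.7) against 52.7% (50.2 to 55.1), so no order is read from that share. Without thinning the shares were 69.1% in Arg and 79.3% in Control, where the median depth was higher. The top Arg cell held 269 of 9336 Prf1 UMIs and the top Control cell 71 of 10459. The share with a Serpinb9b UMI was 13.99% (11.98 to 16.2) against 6.11% (5.001 to 7.37).

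**Figure D3:**
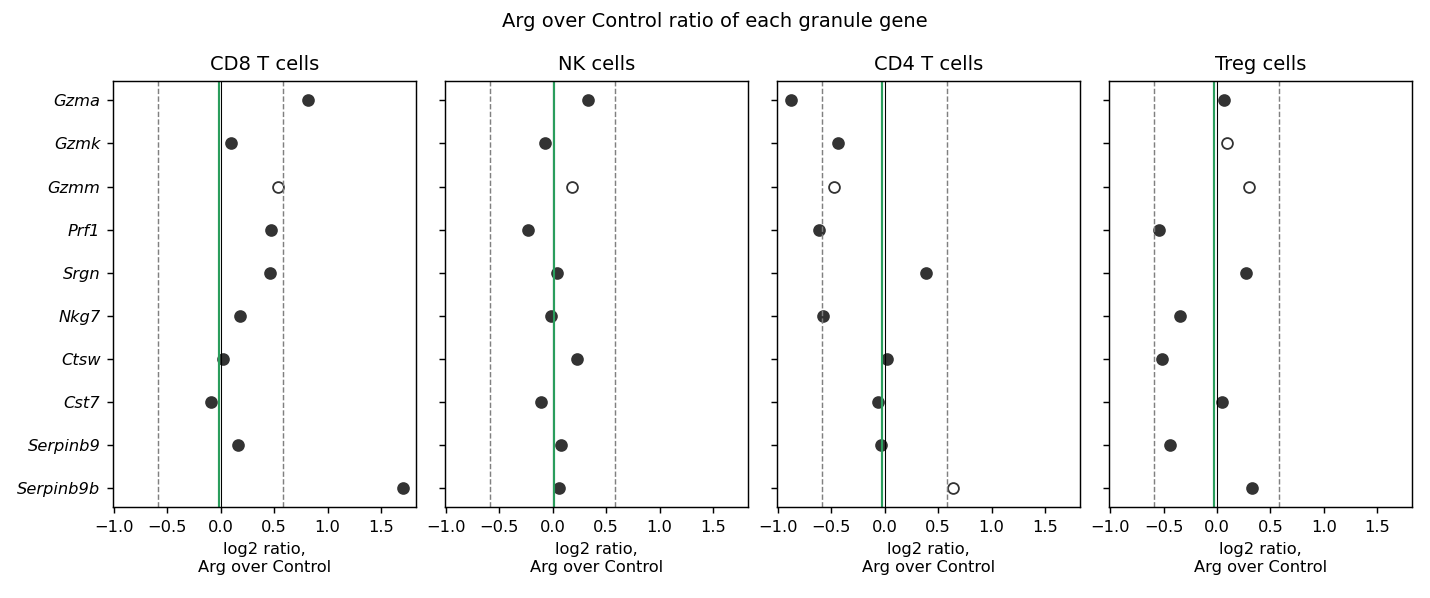
Log2 ratio of Arg over Control for each gene in the 4 classes, after adding 5 CPM to each level. Filled points are above the 10 CPM floor and open points below it, dashed lines mark 1.5-fold and the green line is the median of all genes above the floor. Gzma and Serpinb9b lie beyond the line to the right in CD8 T cells, and Gzma and Prf1 beyond it to the left in CD4 T cells.

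The class ratio of Gzma joined clusters that went in different directions. In cluster L2, which held the most Gzma and Gzmk of the CD8 T clusters, Gzma was at 584 CPM in the Arg and 1109 CPM in the Control library (0.526-fold, 0.485 to 0.571), lower in Arg. It was higher in Arg in L1 (249 against 50.5 CPM), L4 (279 against 42.3 CPM), L5 (207 against 77.9 CPM; a cycling cluster) and L8 (164 against 26.2 CPM; led by Ccl1 and Crtam). L2 was a larger part of the Arg than of the Control class. When both libraries were given 1 common mix of clusters, the log2 ratio of Gzma in CD8 T cells was 0.14 in place of 0.81. Outside L2, few cells carried the signal: in L4, 45 of 392 Arg cells and 6 of 82 Control cells had a Gzma UMI, the 10% of cells with most held 99.5% and 100% of the UMIs, and 1 Arg cell had 218. Of the 8 thinned shares of Gzma-positive cells in L1, L4, L5 and L8, 7 had intervals overlapping that of macrophages in the same library. The exception was L5 in the Control library, at 4.37% (2.47 to 7.11).

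NK cell transcripts also differed between these classes. Ncr1, a defining NK receptor, was at 24.96 CPM in Arg and 8.53 CPM in Control CD8 T cells, and Klrb1c at 3.57 and 0.680 CPM. The 10 NK markers summed to 378 and 431 CPM in CD8 T cells, with Klra9 at 0 in the Arg and none at 0 in the Control class, against 2135 and 2409 CPM in NK cells. A UMI of Ncr1 or Klrb1c was present in 70 (6.14%) of the Arg and 51 (3.02%) of the Control CD8 T cells, and these cells held 46.2% and 27.1% of the class's Gzma UMIs. Without them Gzma was at 177 and 128 CPM (1.38-fold, 1.29 to 1.47), no longer past 1.5-fold. Cluster L2 still gave 427 against 1084 CPM and L5 177 against 22.6 CPM, while L8 gave 22.3 and 21.7 CPM. L4 gave 127 against 41.7 CPM. L1 was no longer higher in Arg, with 9.88 against 16.5 CPM, since 96.6% of its Arg UMIs were in the cells left out. Leaving out every CD8 T cell with a UMI of any of the 10 NK markers, some of which (Klre1, Eomes) CD8 T cells also express, kept 368 Arg and 241 Control cells and turned the direction of Gzma (log2 ratio −0.81) and of Serpinb9b (−0.18). It also turned Prf1 (−0.29) and Nkg7 (−0.011). Of the 10 markers, Klri2 (r = 0.907) and Klre1 (0.894) were among the genes most like Prf1 over the clusters. This exclusion thus took out CD8 T cells by genes that run with Prf1. What it left is a selected part of the class, from 1140 Arg and 1690 Control cells. Both exclusions were chosen after seeing the data, and the part of NK cells or their RNA in the Gzma level of the class was not tested beyond these values.

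Serpinb9b in CD8 T cells was higher in Arg in L4 (421 against 279 CPM, 1.51-fold, 1.31 to 1.75), L5 (259.9 against 61.9 CPM, 4.20-fold, 3.66 to 4.82) and L8 (182 against 89.6 CPM, 2.03-fold, 1.64 to 2.53). In L1 it was at 55.8 and 69.9 CPM and in L2 at 6.67 and 12.3 CPM, with intervals of the ratio that include no difference. Cells with an Ncr1 or Klrb1c UMI held 5.97% of the Arg and 6.57% of the Control UMIs of the gene, and without them its levels were 254 and 70.4 CPM (3.61-fold). L4, where the gene was highest of the 5 main CD8 T clusters, was 34.4% of the Arg and 4.85% of the Control class, and with 1 common mix of clusters its log2 ratio was 0.71 in place of 1.70. Its neighbour Serpinb9 stayed between 227 and 476 CPM in the Control and between 209.8 and 464 CPM in the Arg library over the same 5 clusters.

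Gzmk and Prf1 were highest in different CD8 T clusters, L2 and L4. In L8, L5 and L1 both rose in that order with the libraries summed (Gzmk 17.7, 39.4 and 46.1 CPM, Prf1 405, 678 and 769 CPM). Over the 17 clusters of at least 50 cells described below, the pair had a Pearson r of −0.059. L2 held 233 and 283 CPM of Gzmk and 101 and 51.96 CPM of Prf1, whereas L4 held 28.4 and 66.1 CPM of Gzmk and 1545 and 1587 CPM of Prf1. L2 was thus highest for Gzmk and lowest for Prf1 of the 5 main CD8 T clusters in both libraries, and L4 highest for Prf1. Gzmk was lower in Arg cells of L4 (0.430-fold, 0.305 to 0.613) and L8 (11.3 and 25.5 CPM, 0.445-fold, 0.240 to 0.799), although the class ratio was close to 1. Prf1 was higher in Arg cells of the cycling cluster L5 (925 against 579 CPM, 1.60-fold, 1.51 to 1.69) and of L2 (1.93-fold, 1.43 to 2.66), and within L1, L4 and L8 its ratios were 1.06, 0.974 and 1.03. With 1 common mix of clusters the log2 ratio of Prf1 was 0.14 in place of 0.47, which turned to −0.23 without cluster L4, and that of Gzmk turned to −0.35 from 0.092. Nkg7 ranged from 931 CPM (L2) to 1969 CPM (L4) over the Arg clusters, and of the same 5 clusters Cst7 was lowest in L2 (78.99 and 62.4 CPM) in both libraries.

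**Figure D4:**
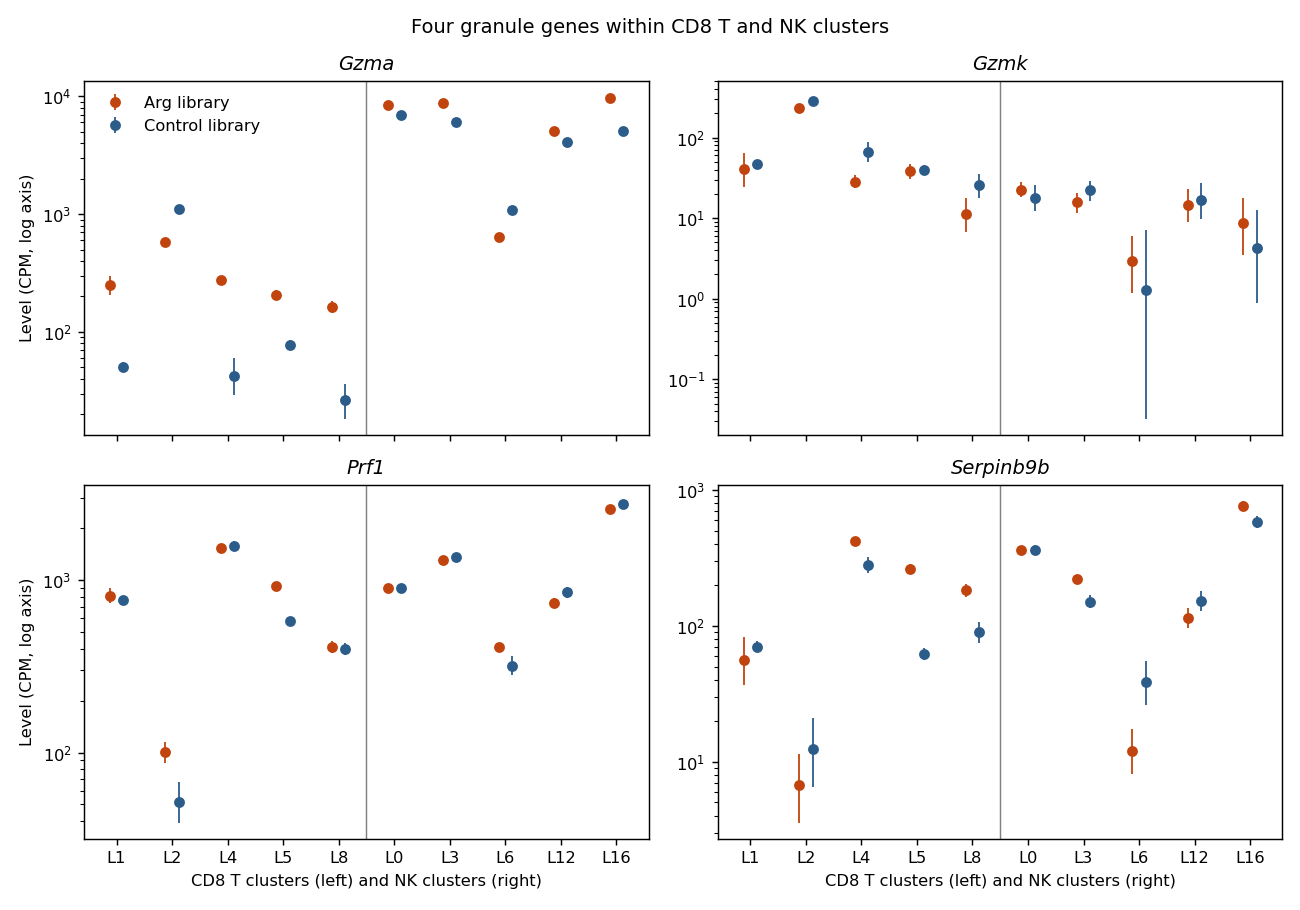
Levels of Gzma, Gzmk, Prf1 and Serpinb9b in CPM (log axis) within 5 CD8 T clusters and 5 NK clusters, for the Arg (red-brown) and Control (blue) libraries, with 95% counting intervals. Gzma is lower in Arg in clusters L2 and L6 and higher in the other 8 clusters plotted.

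NK cells differed less between the libraries. Of 9 genes above the floor, 5 were higher and 4 lower in Arg (53.7% of all genes were higher), 0 passed 1.5-fold, where 0.662% of 8005 genes passed higher, 0.862% lower and 1.52% in either direction, and the median log2 ratio was 0.041 against 0.014 for all genes. Gzma was higher in Arg, 1.25-fold, 1.24 to 1.27, and Prf1 lower (0.851-fold, 0.826 to 0.876), while Ctsw was at 1.17-fold (1.11 to 1.25). With 1 common mix of clusters the log2 ratio of Prf1 was −0.0085 in place of −0.23 and that of Ctsw 0.12 in place of 0.23. Srgn, Nkg7, Serpinb9 and Serpinb9b had ratios between 0.986 and 1.05. The NK clusters differed from one another by far more. L0 (Itga2, Eomes) held 8456 and 6914 CPM of Gzma and L3 (Gzmc, Car2) 8782 and 6058 CPM, whereas L6, led by Xcl1 and Rora, held 633 and 1094 CPM. L6 was also lowest of the 5 NK clusters for Prf1 (407 and 319.7 CPM) and Serpinb9b (12.05 and 38.5 CPM) and highest for Ctsw (424 and 372 CPM). It was the NK cluster in which Gzma was lower in Arg (0.579-fold, 0.532 to 0.631). L16, a set of 25 Arg and 28 Control cells led by Gzmg, Gzmf and Gzmd, had the highest Prf1 (2583 and 2748 CPM) and Serpinb9b (759.7 and 575 CPM) of all clusters of at least 50 cells. Gzma was 1.45-fold (1.42 to 1.48) in L3 and 1.91-fold (1.84 to 1.99) in L16.

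In CD4 T cells 2 of 8 genes above the floor were higher and 6 lower in Arg (46.9% of all genes were higher), and 2 passed 1.5-fold, both lower, where 7.39% of 8001 genes passed higher, 9.32% lower and 16.7% in either direction. They were Gzma (63 and 45 UMIs; 0.518-fold, 0.348 to 0.777) and Prf1 (17 and 11 UMIs; 0.572-fold, 0.253 to 1.35). The Gzma UMIs came from 15 of 227 and 10 of 103 cells, with 27 of them in 1 Arg cell and 32 in 1 Control cell. Without the top cell of each library, an alternative chosen after seeing the data, Gzma was at 26.8 and 26.8 CPM, and the log2 ratio of Prf1, treated likewise, was −0.55, so neither stayed past 1.5-fold. Nkg7 was at 0.661-fold (0.523 to 0.840), just inside the threshold once 5 CPM was added (log2 ratio −0.58), and Srgn at 1.30-fold (1.204 to 1.41). No Control CD4 T cell had an Ncr1 or Klrb1c UMI, and without the 12 Arg cells that did, Gzma was at 25.05 against 89.7 CPM.

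In Treg cells 4 of 8 genes above the floor were higher and 4 lower in Arg (45.7% of all genes were higher), and 0 passed 1.5-fold, where 2.67% of 8265 genes passed higher, 3.76% lower and 6.44% in either direction. Prf1 (0.678-fold, 0.570 to 0.806), Ctsw (0.670-fold, 0.477 to 0.945), Serpinb9 (0.724-fold, 0.586 to 0.897) and Nkg7 (0.787-fold, 0.713 to 0.869) were lower in Arg, and Srgn was higher (1.21-fold, 1.16 to 1.27). Gzma was at 1.05-fold (0.892 to 1.23), from 37 of 283 Arg and 9 of 165 Control cells. The 19 Arg and 10 Control Treg cells with an Ncr1 or Klrb1c UMI held 73.1% and 98.7% of these UMIs, and without them the levels were 53.9 and 2.62 CPM, the latter from 3 UMIs. Prf1 without these cells was at 90.5 and 139 CPM (0.652-fold, 0.528 to 0.807), and the share of thinned Treg cells with a Prf1 UMI was 6.81% (4.15 to 10.4) in Arg and 17.2% (11.6 to 24.03) in Control. Cd8a was at 43.6 and 92.7 CPM in these cells, and the part of CD8 T cells in the lower Prf1 level was not tested. A gate on single cells was applied to all cells of the T and NK clusters, named or not. It asked for a UMI of Foxp3 and of Cd3d, Cd3e or Cd3g and none of Cd8a or Cd8b1 (221 and 118 cells in Arg and Control). The gated cells are thus not a subset of the Treg class. They can come from clusters such as L10 (211 Arg and 51 Control cells without a class name, 12.2% with a Foxp3 UMI). Among gated cells all 4 genes that were lower turned direction. The log2 ratio of Prf1 was 1.96 in place of −0.54 and of Ctsw 0.80 in place of −0.51. That of Nkg7 was 0.26 in place of −0.34 and of Serpinb9 0.040 in place of −0.44, while Gzma moved to 2.18. The part of cells from outside the class was not tested. Within the Treg class, leaving out cells with a UMI of any of the 10 NK markers turned Prf1 (0.37), Ctsw (0.30) and Nkg7 (0.10) as well.

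Single cells were then examined for joint detection, after thinning. In CD8 T cells Gzma and Gzmk occurred together more often than the product of their shares: 4.20% of Arg cells had both, against 1.54% from that product, and 3.57% of Control cells against 0.965%. Gzmk was found in 37.7% and 44.7% of the cells with Gzma and in 10.8% and 9.26% of the others. Inside L2 the same pair was at 11.7% against 7.74% and 23.95% against 15.3%. Prf1 was paired with Gzma less often than the product in CD8 T cells (3.93% against 5.43% in Arg, 2.36% against 4.20% in Control). In NK cells the order was the other way: Prf1 was found in 71.8% and 77.4% of the cells with Gzma and in 38.7% and 41.5% of those without. Both classes join clusters unlike in these 2 genes. With libraries summed, L2 held 769 CPM of Gzma and 83.4 CPM of Prf1, and L4 240 and 1552 CPM. Among NK clusters, L6 held 746 and 385 CPM and L0 7987 and 898 CPM. The part of the cluster mix in either order was not tested. Gzmb, the granzyme that Serpinb9 inhibits, was found in 65.8% (62.9 to 68.6) and 64.6% (62.3 to 66.9) of CD8 T and 75.04% (72.7 to 77.3) and 76.3% (73.1 to 79.3) of NK cells. Cells of 1 library share that library, so these are descriptions of 2 samples, and they carry no test.

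Over the 17 T and NK clusters of at least 50 cells (both libraries summed), 5 pairs of the 10 genes ran together with a Pearson r of log2(CPM + 5) above 0.79: Ctsw with Serpinb9 (0.879), Nkg7 with Cst7 (0.868), Prf1 with Serpinb9b (0.857), Prf1 with Nkg7 (0.793) and Prf1 with Cst7 (0.791). The neighbours did not: Gzma with Gzmk gave −0.136 and Serpinb9 with Serpinb9b 0.488. Srgn ran against Ctsw (−0.686) and Nkg7 (−0.672). A further search took the 5560 genes with at least 50 CPM in a cluster and left the 10 genes out of the listing. Those most like Gzma were Sema6a (r = 0.916), D5Ertd615e, Klrb1c, Car2 and Sh2d1b1, with the fifth at 0.858. Those most like Prf1 were Lrrk1 (0.945), Chst12, Klri2, Irf8 and Klre1 (0.894). Gzmk had weaker partners, Ngly1 (0.794), Wdr95, Snx25, Rpl13a and Sap30l (0.704). The clusters come from the same 2 libraries, so the values describe these clusters only. The 3 clusters without a name (L10, L11 and L13, 310 Arg and 282 Control cells in all) took no class name and enter no class value. They are, however, among the 17 clusters of these correlations, and were not shown to be T or NK cells. L13 held 0 Arg and 126 Control cells, with the macrophage marker C1qa in 96.8% of them and Cd3e in 34.9%. In L10, C1qa was found in 72.1% of cells and in L11 in 35.8%. The named clusters among the 17 ranged from 39.0% (L8) to 54.7% (L16).

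**Figure D5:**
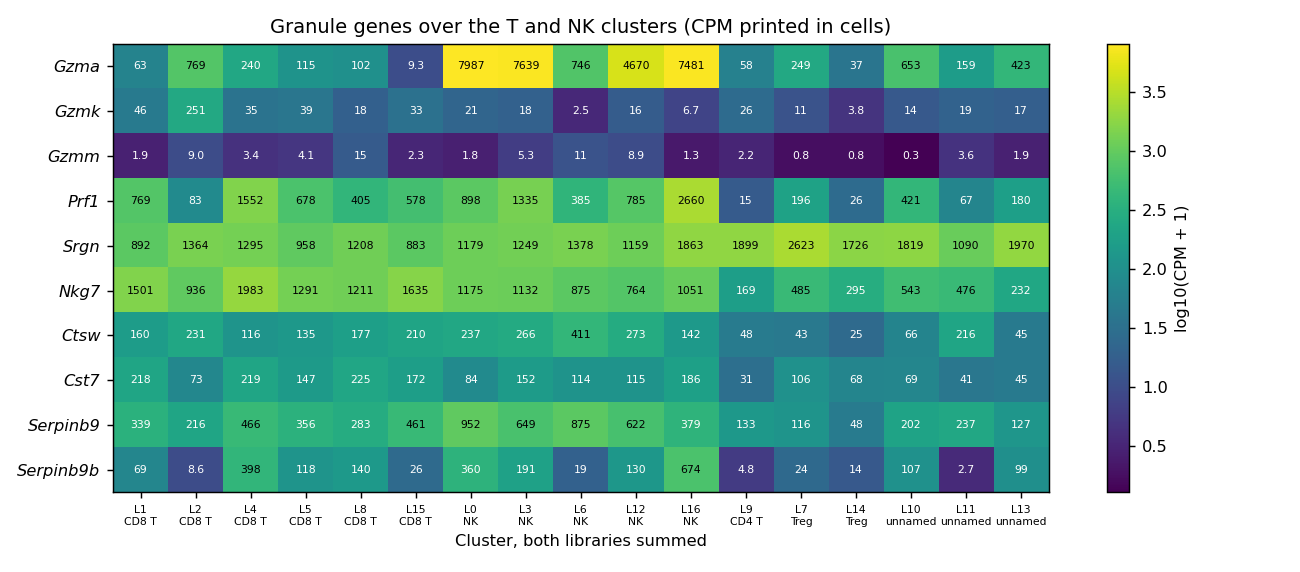
Level of each gene in the 17 clusters of at least 50 cells from the T and NK round of clustering, with both libraries summed. The clusters include L10, L11 and L13, which took no name. Fields are coloured by log10(CPM + 1), with CPM printed in each. Gzma is brightest in the NK clusters other than L6, Gzmk in CD8 T cluster L2, and Prf1 and Serpinb9b in NK cluster L16.

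The other genes of the granule pathway gave the setting. In CD8 T cells 46 of 51 listed genes were above the floor, of which 7 were past 1.5-fold higher and 1 lower in Arg (2.39% and 2.57% of all genes), with a median log2 ratio of 0.15. Of the 6 other granzymes above the floor, 5 were among them: Gzmd was at 1168 against 54.1 CPM, Gzme at 670.1 against 40.7 CPM, Gzmg at 73.9 against 4.88 CPM, Gzmf at 935 against 254 CPM and Gzmc at 179 against 45.1 CPM. Gzmb, at 1890.5 against 1274 CPM, stayed under the threshold, and Gzmn had 3 and 0 UMIs. The ratios of Gzma and Serpinb9b in the same cells were smaller than those of these 5 enzymes. Gzme and Gzmd were among the leading genes of cluster L4, which was 34.4% of the Arg and 4.85% of the Control class. The part of the cluster mix in the ratios of the 5 was not tested. The 5 are close relatives, and how reads shared between them were counted is not stated. Igf2r, a sorting receptor for lysosomal enzymes, was lowest in Arg relative to Control (log2 ratio −0.77), followed by the transcription factors Runx3 (−0.47) and Ikzf3 (−0.31), then the lysosomal enzymes Ctsd (−0.19) and Gusb (−0.16). In NK cells 47 of 51 were above the floor and 1 was past 1.5-fold in each direction (0.662% of all genes higher and 0.862% lower): the cytokine Tnf higher (39.7 against 24.7 CPM) and Gzmg lower (729.6 against 1379.9 CPM). The 6 other granzymes above the floor in NK cells had lower values in Arg, though the intervals of Gzmc and Gzmd include no difference: Gzmb was at 2820.0 against 3318 CPM, Gzmc at 2793 against 2835 CPM, Gzmd at 1732 against 1736 CPM, Gzme at 614 against 638 CPM and Gzmf at 1779 against 1996 CPM, while Gzma was higher. After Tnf came Lyst (0.35), which acts in granule biogenesis, Ctsl (0.29), Sytl2 (0.24) and Dock2 (0.22), and next to Gzmg and Gzmb at the low end were Eomes (−0.23), Serpinb6a (−0.21) and M6pr (−0.17). In CD4 T cells 42 and in Treg cells 46 of the listed genes were above the floor, with 4 past 1.5-fold higher in each class and 2 and 3 lower. These counts stand beside 16.7% of all genes past 1.5-fold in CD4 T and 6.44% in Treg cells.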

How the data were processed

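Each library's deposited file holds raw UMI counts per gene and barcode, with no normalization, for the 2 CD45-positive samples. The software is Cell Ranger 7.0.1 per the file headers, but version 2.2.2 with GRCm38 per the submitters' processing notes. Intron and strand settings are not given there. Gene symbols and barcodes were read as the deposited feature and barcode lists give them.

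Kept barcodes had 200 genes and 500 UMIs or more and no more than 10% mitochondrial UMIs (13875 and 13487 in Arg and Control). Doublets called by Scrublet at an expected 8% (884 and 687) were dropped. Counts scaled to 10000 per cell were log-transformed and clustered on 2000 variable genes without the 10 members, 30 principal components, 20 neighbours and Leiden resolution 1 (seed 1), followed by a second round within the T and NK clusters. A cluster took a name where the mean log2 fold of a marker set was at least 0.5, 3 markers reached 20% of its cells, the defining marker reached 30%, and it held 20 cells or more. These limits were chosen with the clusters in view. Background was read in macrophages and neutrophils only, because no cluster took the tumour epithelial name. The 10 members, gene lists and rules were chosen with earlier results of these data known.

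Counts summed per class were divided by the class total (CPM), with exact Poisson 95% intervals, conditional binomial intervals for ratios and Clopper-Pearson intervals for shares. Log2 ratios used a pseudocount of 5 CPM. Genes with a mean of at least 10 CPM counted as above the floor, 1.5-fold was the threshold, and 3 counts was the limit for a count of 0. All members were named, and from the pathway list every granzyme and the 5 highest and 5 lowest ratios in CD8 T and NK cells. A cluster or feature outside this rule was chosen after its values were seen. With 1 library per group no test was run. The calculation of ratios and intervals was run on simulated counts with large known folds put in. Each simulated UMI was drawn independently, as the intervals assume, so that run does not cover genes whose UMIs sit in few cells. Tools were Python 3.11.15, scanpy 1.11.5, leidenalg 0.10.2, scipy 1.17.1 and R 4.3.3 with edgeR 4.0.16 (TMM scaling factors only). No protein sequences were used here.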

Additional observations from a re-analysis of the deposited data

Results flagged for a closer look

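Gzma stood past 1.5-fold in opposite directions in 2 classes, which is why it is listed here. Its log2 ratio of Arg over Control was 0.81 in CD8 T cells and −0.88 in CD4 T cells, and the difference between the classes was not tested. The CD4 T value rests on 63 and 45 UMIs, of which 1 Arg cell held 27 and 1 Control cell 32. Without these cells the levels were 26.8 and 26.8 CPM, so the opposite direction rests on them. Macrophages of the same libraries held 36.2 and 10.02 CPM against 46.4 and 89.7 CPM in all CD4 T cells.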

How the results depend on the processing

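No paired analysis was possible because each group is 1 library, and for the same reason no replicate could be left out. In NK cells 0 of the 10 genes passed 1.5-fold in any of the 14 settings listed at the outset. The median log2 ratio of the genes in CD8 T cells (0.18) was 0.32 with no floor, 0.27 with cells weighted equally and 0.28 with doublets kept. It was 0.28 without cluster L2 and −0.011 without cells with a UMI of any of 10 NK markers. The median in Treg cells (−0.15) was 0.44 under the per-cell gate and 0.22 without cells with any NK marker UMI. Percentages after the counts that follow are the share of all genes past the threshold in either direction in that setting. The CD8 T count of 2 (4.96%) was 1 at a threshold of 2-fold (1.02%) and 1 with 1 common mix of clusters (2.30%). It was 1 without cells with an Ncr1 or Klrb1c UMI (5.04%), and these counts were all higher in Arg. Without cells with any NK marker UMI it was 1, lower in Arg (9.89%). The CD4 T count of 2 (16.7%) was 0 at 2-fold (3.54%). It was 1 each with TMM scaling (17.2%), no cell filter (15.1%) and doublets kept (14.9%), lower in Arg. With cells weighted equally it was 1, higher in Arg (19.3%), and without cells with any NK marker UMI it was 0 (20.7%). The Treg count of 0 (6.44%) was 2 with cells weighted equally (11.3%) and 2 with a common mix (7.33%), all lower in Arg. It was 1, lower in Arg, with doublets kept (5.98%), the members among the variable genes (6.48%) and genes centred within libraries (6.56%). It was 1 with no cell filter (6.48%), 3 under the per-cell gate (9.36%) and 1 without any NK marker UMI (9.84%), all higher in Arg. Without cells with an Ncr1 or Klrb1c UMI it was 4, with 2 in each direction (7.53%). Gzma in CD4 T cells turned from −0.88 to 0.97 at resolution 2 and 0.23 without cells with any NK marker UMI, and Prf1 there from −0.62 to 0.12 under the per-cell gate. In CD8 T cells Gzma (−0.81) and Serpinb9b (−0.18) turned without cells with any NK marker UMI. That setting kept 368 of 1140 Arg and 241 of 1690 Control cells, selected in part by genes that run with Prf1. Fewer cells enter the gate and the settings without NK marker UMIs, and the gate can also take cells from clusters outside the class. Otherwise the cause was not tested. Of 480 single gene ratios under settings listed at the outset, 419 stayed within their counting error and 36 changed sign, 2 of them from a value past 1.5-fold. Of 150 under settings added later, 104 stayed within it, 25 changed sign and 3 of these came from past 1.5-fold. Genes with few UMIs stay within their counting error most easily, so these counts do not measure stability. In CD4 T cells it was 4.19 log2 units to each side for Serpinb9b and 3.79 for Gzmm. Gzmm in Treg cells, with 0 Control UMIs, had no limit. Of 80 shares of cells, 54 moved outside their interval when thinned to 1000 UMIs and 61 without thinning. The settings that leave out a cluster, a gene's top cell or cells with NK marker UMIs were chosen after seeing the data. Depth limits the CD4 T class most, where Prf1 rests on 17 and 11 UMIs.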

Other observations

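Gzma UMIs were also found in myeloid and dendritic classes, at higher levels in the Arg library. Type 1 conventional dendritic cells, which cross-present antigen, held 258 CPM in the Arg and 11.6 CPM in the Control library, mast cells 165 and 11.9 CPM and plasmacytoid dendritic cells 92.04 and 13.7 CPM. A Gzma UMI was found in 30 of 172 Arg and 24 of 177 Control cells of the first class, 17 of 176 Arg and 3 of 56 Control cells of the mast cell class and 17 of 188 Arg and 13 of 162 Control cells of the plasmacytoid class. In the first class the 10% of Arg cells with most held 98.4% of 769 UMIs, and 1 cell held 148.

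Outside the lymphocytes Cst7 was highest in mast cells, at 125 CPM with both libraries summed, a level whose interval includes the 123 CPM of NK cells. Serpinb9 was highest of all classes in mature dendritic cells, at 1145 and 1248 CPM in 90 Arg and 80 Control cells.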
